A study of Rattus norvegicus with 11 samples.

Results

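Of 11 rat adrenal arrays, 4 had a low level of Bmal1 mRNA and 7 a high level, and other transcripts were compared across this division. Outside the core clock genes, none passed the test at an adjusted p under 0.05. Bmal1 is the bHLH-PAS activator at the centre of the circadian clock. It was named by 1 probe set, and an array was counted as low when the log2 value of that probe set was under 6.5. The low arrays were 2 adrenal lesions and 2 normal glands, and the high arrays were 5 lesions and 2 normal glands. The array just under the threshold was normal gland 1 at 6.13 and the array just above it was normal gland 4 at 7.25, so no array lay near 6.5. The division was made from measured values and not from a label, and a p-value below is one of association with it across these arrays. Bmal1 itself has no test for the same reason, and the other clock genes serve as a description of the division.

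The lesions came from rats heterozygous for a mutation of p27Kip1 (Cdkn1b, spelled Cdknb1 in the labels), the inhibitor of cyclin-dependent kinases whose loss causes the multiple endocrine tumour syndrome MENX. The normal glands came from wild-type rats of the same stock, Sprague–Dawley white eye/Wistar–Kyoto, and no animal had been treated. Both low lesions (lesions 6 and 7) were from 13-month males. The high lesions were from a 23-month female (lesion 1), 21-month males (lesions 2 and 3) and 13-month females (lesions 4 and 5). Both low normal glands were from rats of 24 months, a female (normal gland 1) and a male (normal gland 2), and both high normal glands were from rats of 12 months, a female (normal gland 3) and a male (normal gland 4). Age and the division therefore cannot be told apart among the normal glands, nor sex and the division among the 13-month lesions. The sources used here do not give the time of day at which tissue was taken.

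All values are log2 expression after RMA, so a difference of 1 is a doubling of signal. Array medians lay between 4.91 and 5.01. Mean correlation with the other arrays was 0.970 for lesion 1 and 0.978 to 0.986 for the others, so lesion 1, a high array, stood apart slightly. The tissue markers were present, with mean levels of 12.1 for Th, the catecholamine enzyme of the medulla, and 10.99 for Cyp11b1, the last enzyme of corticosterone synthesis. Neither followed the division. The low minus high difference was -0.02 (95% interval -0.42 to 0.39) for Th and 0.08 (-0.57 to 0.73) for Cyp11b1. In bulk tissue, fewer cells of a type and less RNA per cell cannot be told apart.

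The circadian clock is a loop of transcription and repression that runs in nearly every mammalian cell. BMAL1 with CLOCK or NPAS2 activates genes through E-boxes (CACGTG), among them the Per, Cry and Nr1d genes, Dbp and Bhlhe41. PER and CRY proteins repress that activation, and the NR1D proteins repress Bmal1 and Npas2 through ROR elements (RORE). The loop runs out of phase, so that Dbp and Per mRNAs are abundant when Bmal1 mRNA is scarce. In the adrenal gland the clock is known for its part in the daily rhythm of glucocorticoid release.

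The sequences below show those elements, found by letters alone, in some of the clock and leading genes that held a match. The 300-base RefSeq promoter entries of assembly GRCr8 (250 bases before the start and 50 after it) were searched on both strands for the E-box CACGTG, the D-box TTATGTAA, which binds DBP and its repressor NFIL3, and the RORE ANTAGGTCA. The 120 bases before the start are printed 5′ to 3′ on the strand of the gene, with the match in capitals. Bmal1 and Bhlhe41 are shown as clock genes of opposite direction, and Epm2a and Zfp507 because they were the leading genes outside the clock that held a match.
Bmal1, chr1:176766208-176766327, plus strand, RORE: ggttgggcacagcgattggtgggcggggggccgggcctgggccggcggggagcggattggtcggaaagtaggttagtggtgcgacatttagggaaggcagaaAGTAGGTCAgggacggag
Bhlhe41, chr4:180569356-180569475, minus strand, E-box: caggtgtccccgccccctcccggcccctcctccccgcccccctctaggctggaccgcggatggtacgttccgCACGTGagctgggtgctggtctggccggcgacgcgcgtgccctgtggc
Epm2a, chr1:7547249-7547368, plus strand, E-box: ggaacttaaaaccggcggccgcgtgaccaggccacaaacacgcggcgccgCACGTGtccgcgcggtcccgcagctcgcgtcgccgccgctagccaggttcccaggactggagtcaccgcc
Zfp507, chr1:97605406-97605525, minus strand, E-box: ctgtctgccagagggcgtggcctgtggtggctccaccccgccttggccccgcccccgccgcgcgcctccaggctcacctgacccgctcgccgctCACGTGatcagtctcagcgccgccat

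The E-box was found in 4 of the 16 core clock genes with an entry (25%) and in 2 of the 23 leading genes outside the clock with an entry (8.7%), beside 6.42% of all 33469 entries. The D-box was found in 1 of the 16 clock genes (Per2), in 0 of the 23 leading genes and in 0.893% of all entries. The RORE was found in 1 of the 16 clock genes (Bmal1), in 0 of the 23 leading genes and in 0.657% of all entries. The clock genes with an E-box were Bhlhe41, Nr1d1, Bhlhe40 and Tef. The searched entries gave no match for Dbp, Nr1d2 or Per3. A match describes letters and is not a bound site.

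The clock genes set the scale of the division. Bmal1 measured 5.68 and 5.81 in the low lesions and 6.13 and 5.68 in the low normal glands, against 7.25 to 7.67 (median 7.32) in the 7 high arrays. Dbp, the PAR bZIP activator of D-boxes, measured 9.54 and 9.71 in the low lesions and 9.12 and 9.73 in the low normal glands, against 7.60 to 8.40 (median 7.74) in the high arrays. The low arrays were thus those with the most Dbp, with no overlap.

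Bhlhe41, a bHLH repressor of E-boxes, measured 6.89, 7.19, 7.23 and 8.10 in the low arrays and 5.24 to 6.25 (median 5.65) in the high arrays. Nr1d2, which encodes REV-ERB beta, measured 8.48, 8.44, 8.48 and 8.43 in the low arrays and 7.66 to 7.93 (median 7.86) in the high arrays. Per3, a period gene, measured 6.44, 6.70, 6.11 and 6.40 in the low arrays and 5.37 to 6.01 (median 5.73) in the high arrays. All 3 were higher in every low array than in any high array.

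Of 27 listed core clock genes 18 were measured, and these 5 did not overlap between low and high arrays. For Bmal1 that was fixed by the division, which leaves 4 of the other 17, beside 0.38% of all probe sets besides Bmal1. The low minus high differences, with lesion status in the model, were -1.61 for Bmal1, 1.66 for Dbp, 1.61 for Bhlhe41, 0.74 for Per3 and 0.66 for Nr1d2. Per2 (0.59), the REV-ERB alpha gene Nr1d1 (0.74), the CLOCK paralog Npas2 (-1.07) and the D-box repressor Nfil3 (-0.86) had differences of at least 0.5 with overlapping values. The other 9 lay between -0.10 and 0.42.

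Per1 and Cry2, genes of the repressor arm, had unlike values in the tissues. Per1 measured 7.94 and 7.99 in the low against 6.85 to 7.47 (median 7.08) in the high lesions, and 8.23 and 7.65 in the low against 8.51 and 9.01 in the high normal glands. It was thus higher in low lesions and lower in low normal glands, with no overlap in either tissue. The overall difference of 0.13 averaged 0.80 (95% interval 0.32 to 1.27) within lesions and -0.82 (-1.39 to -0.26) within normal glands, opposite in sign to Dbp in the latter. Cry2 differed by 0.83 within lesions and -0.16 within normal glands. The difference between tissues did not pass the limma test for either gene, with an adjusted p of 1.00 after rounding.

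**Figure D1:**
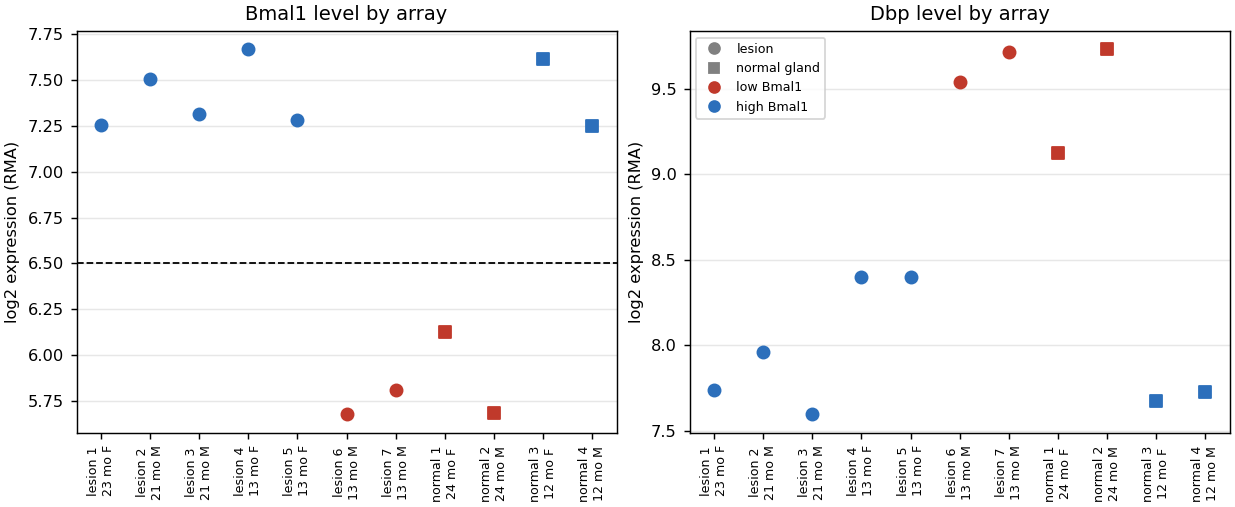
Log2 expression of Bmal1 (left) and Dbp (right) in each of the 11 arrays, lesions as circles and normal glands as squares, low arrays in red and high arrays in blue; the dashed line is the threshold of 6.5. The 4 low arrays lie at 5.68 to 6.13 for Bmal1 and at 9.12 to 9.73 for Dbp, and no high array lies in either range.

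Outside the core clock no transcript passed the test. With limma (moderated test, Benjamini-Hochberg over 29214 probe sets), 1 probe set besides Bmal1, or 0.00342% of the other 29213, differed between low and high arrays at an adjusted p under 0.05. It was that of Dbp, whose difference of 1.66 (SE 0.18, 95% interval 1.26 to 2.05) had an adjusted p of 0.0280. The smallest adjusted p outside the core clock list was 0.849, for a probe set with no gene name here. Without adjustment, 787 probe sets besides Bmal1, or 2.69%, had a p under 0.05, of which 456 were higher and 331 lower in the low arrays. Chance alone would give 1460.7 at that level.

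The precision of the fit bears on how that count is read. The median standard error of a difference was 0.13, and the median 95% interval reached 0.28 to either side. In all, 23 probe sets had a difference of at least 1 in size. The median over all probe sets was 0.01, and 52.8% were above 0, on values that RMA had already brought to a common distribution. The Dbp call rested on most arrays: its difference was 1.55 to 1.74 with each array left out in turn, but the adjusted p was under 0.05 only without lesion 3, 4 or 5. It was 0.0503 without lesion 1, 0.0731 without lesion 2, 0.218 without lesion 6, 0.360 without lesion 7, and 0.0627, 0.120, 0.194 and 0.166 without normal glands 1 to 4.

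**Figure D2:**
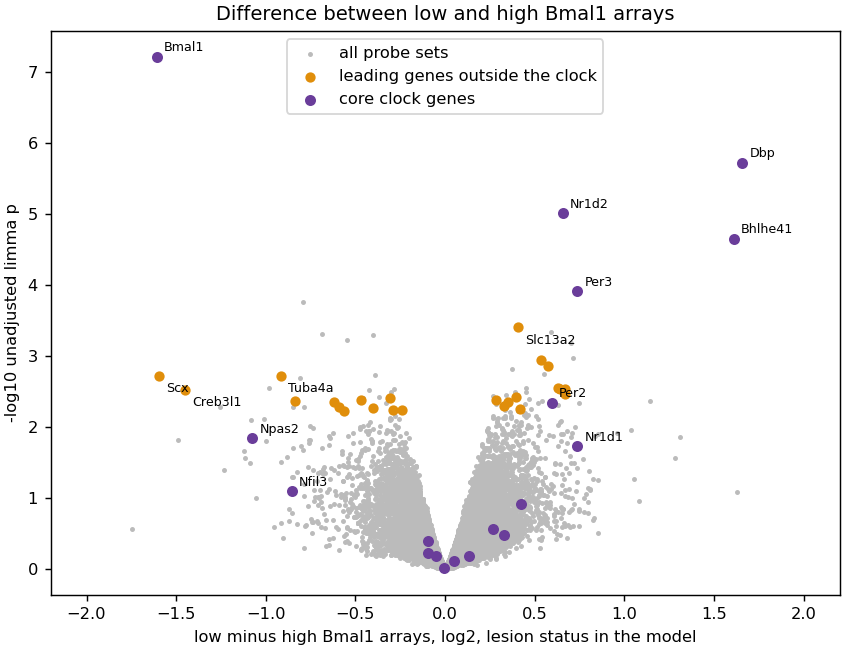
Low minus high difference (log2, lesion status in the model) against the unadjusted limma p on a -log10 scale for 29214 probe sets, with core clock genes in purple and the 24 leading genes outside the clock in orange. Bmal1, at -1.61, made the division and its height is no result; Dbp, at 1.66, stands highest of the others, and the leading genes lie at the edge of the mass of all probe sets.

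Values that did not overlap between the 4 low and 7 high arrays were counted without a model. In 111 probe sets besides Bmal1, or 0.38%, they did not overlap, 61 with the low arrays above (0.209%) and 50 with the low arrays below (0.171%). Outside the core clock, 25 of these with a single gene symbol were above and 12 below. A looser count asked for no overlap within lesions and within normal glands separately, in the same direction, and found 306 probe sets (1.05%), 165 with the low arrays above (0.565%) and 141 with the low arrays below (0.483%).

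The 24 leading genes outside the clock were the 12 of smallest unadjusted p in each direction, and all missed the threshold, with adjusted p of 1.00 after rounding. Their unadjusted limma p ran from 0.000395 to 0.00599. They were picked by p in this comparison, so their direction and separation are a consequence of the choice, and their values are given as a description. The size of their differences ran from 0.24 to 1.60, and 2 of the 24 reached 1. The mean level of 7 of the 24 was below the lowest array median, where signal is weak.

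Among genes higher in the low arrays, the smallest p was that of Slc13a2, a sodium-coupled dicarboxylate transporter. It measured 4.18 and 4.40 in the low lesions, 4.15 and 4.31 in the low normal glands, 3.82 to 4.04 (median 3.86) in the high lesions and 3.88 and 3.76 in the high normal glands. Every low array lay above every high array. The difference was small, at 0.41 (SE 0.08, 95% interval 0.23 to 0.58), and all 11 values were below the array medians.

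Hes1, a bHLH repressor and a target of Notch signalling, measured 6.64 and 6.71 in the low lesions and 6.68 and 6.73 in the low normal glands. The high lesions measured 5.51 to 6.36 (median 6.13) and the high normal glands 6.22 and 5.93. The 4 low values lay within 0.1 of each other while the high lesions were spread more widely, and the groups did not overlap. The difference was 0.67 (SE 0.18, 95% interval 0.27 to 1.07).

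Epm2a encodes laforin, the glycogen phosphatase. It measured 5.74 and 5.94 in the low lesions, 5.52 and 6.02 in the low normal glands, 4.89 to 5.58 (median 5.10) in the high lesions and 5.45 and 4.75 in the high normal glands, a difference of 0.67 (0.28 to 1.05). Normal gland 1 at 5.52 lay under the highest high lesion, so the groups overlapped slightly. The difference was 0.07 among the females and 0.84 among the males. The former is that of normal gland 1 (24 months), the only low female array, against normal gland 3 (12 months) alone.

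Rwdd3 encodes RSUME, which enhances SUMO conjugation. It measured 5.09, 5.00, 5.04 and 5.78 in the low arrays and 4.31 to 4.75 in the high arrays, a difference of 0.63 (0.27 to 0.99). Zfp472, a zinc finger gene, measured 5.01, 4.69, 4.78 and 4.93 in the low arrays and 3.80 to 4.55 in the high arrays, a difference of 0.57 (0.28 to 0.87). In both genes the groups did not overlap, and in Rwdd3 normal gland 2 was the highest low array.

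Oasl2 and Rpp25 also differed in level between the tissues. Oasl2, an interferon-induced member of the oligoadenylate synthetase family, measured 6.46 and 6.62 in the low against 5.69 to 6.07 in the high lesions, and 7.12 and 7.15 in the low against 6.96 and 6.35 in the high normal glands, a difference of 0.53 (0.27 to 0.80). Rpp25, a subunit of RNase P and RNase MRP, measured 7.38 and 7.44 against 6.26 to 6.95 in lesions and 7.62 and 8.08 against 7.72 and 7.32 in normal glands, a difference of 0.64 (0.27 to 1.01). Normal glands had more of both transcripts than lesions of the same Bmal1 class, and in Rpp25 the normal glands overlapped.

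The other 5 genes of this direction had smaller differences. Klf7, a Krüppel-like factor, differed by 0.42 (0.15 to 0.68), with low values of 7.996, 8.60, 8.46 and 8.56. Edc3, an activator of mRNA decapping, differed by 0.40 (0.16 to 0.63), with low values of 6.71, 6.37, 6.27 and 6.29. The high arrays reached 8.19 for Klf7 and 6.29 for Edc3, so both overlapped.

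Zfp507, a zinc finger gene whose promoter is printed above, measured 7.09, 7.00, 7.04 and 6.78 in the low arrays and 6.40 to 6.88 in the high arrays. Its difference was 0.35 (0.14 to 0.57), and that of its other probe set was 0.19 with an unadjusted limma p of 0.559. The 95% interval of the latter, -0.50 to 0.88, holds the former. Adap2, an Arf GTPase-activating protein, differed by 0.33 (0.12 to 0.53), with low values of 6.23 to 6.69 against 6.05 to 6.21. Itsn1, the endocytic scaffold intersectin, differed by 0.28 (0.11 to 0.45), with 5.77 to 5.92 against 5.45 to 5.70. Neither Adap2 nor Itsn1 overlapped, although the nearest values of Adap2 were 0.02 apart after rounding.

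Among the leading genes lower in the low arrays, the largest differences were those of a pair of transcription factor genes. Scx encodes scleraxis, a bHLH factor of tendon and connective tissue. It measured 7.12 and 6.44 in the low lesions, 7.66 and 6.63 in the low normal glands, 7.09 to 9.21 (median 8.55) in the high lesions and 9.28 and 8.63 in the high normal glands. The difference was -1.60 (SE 0.39, 95% interval -2.46 to -0.73), the largest of the 24. High lesion 2 at 7.09 and high lesion 5 at 7.61 lay below low normal gland 1 at 7.66, so the groups overlapped.

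Creb3l1, a bZIP factor that is released from the endoplasmic reticulum membrane, measured 8.94 and 8.45 in the low lesions, 8.10 and 7.04 in the low normal glands, 8.88 to 11.18 (median 9.86) in the high lesions and 9.22 and 9.37 in the high normal glands. The difference was -1.45 (-2.29 to -0.61). Low lesion 6 at 8.94 was above the lowest high lesion at 8.88, and all other low values were below every high value.

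Tuba4a, an alpha-tubulin, measured 7.79 and 7.75 in the low lesions and 8.67 and 8.60 in the low normal glands. The high lesions measured 8.08 to 9.37 (median 8.90) and the high normal glands 9.55 and 9.13. Low arrays were below high arrays within lesions and within normal glands, while the low normal glands overlapped the high lesions. The difference was -0.92 (-1.41 to -0.42).

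Cdkn1a encodes p21, an inhibitor of cyclin-dependent kinases from the same family as the mutated p27Kip1, and it also stood in the list of clock output genes. It measured 6.84 and 6.63 in the low lesions, 8.08 and 7.41 in the low normal glands, 7.50 to 8.59 (median 7.61) in the high lesions and 8.05 and 8.53 in the high normal glands. The low lesions were clearly below all other arrays, whereas low normal gland 1 at 8.08 was above high normal gland 3 at 8.05. The difference was -0.84 (-1.35 to -0.32) over all arrays, -1.04 within lesions and -0.55 within normal glands. Among the females it was 0.03, which is that of normal gland 1 (24 months), the single low array, against normal gland 3 (12 months) alone.

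Of the other 8 genes lower in the low arrays, Hps4, a subunit of the BLOC-3 exchange factor of lysosome-related organelles, differed by -0.62 (SE 0.17). Vdr, the vitamin D receptor, differed by -0.59 (-0.97 to -0.22), with low values of 4.91, 4.90, 4.90 and 5.24. Slc38a1, a sodium-coupled amino acid transporter, differed by -0.57 (-0.93 to -0.20), with 6.98 and 7.20 in the low lesions against 7.51 to 8.13 in the high lesions. In normal glands its values overlapped, at 7.89 and 7.60 in the low and 8.23 and 7.73 in the high. In Vdr, the lowest high array, a lesion at 4.88, was under all 4 low arrays.

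Fbxo5 encodes EMI1, the inhibitor of the anaphase-promoting complex. It measured 4.67 and 4.59 in the low lesions against 4.92 to 5.39 in the high lesions, and 4.46 and 3.97 in the low against 4.51 and 4.53 in the high normal glands, a difference of -0.47 (-0.75 to -0.18). Fbxo34, another F-box gene, measured 6.66, 6.85, 6.92 and 6.64 in the low arrays and 6.93 to 7.55 in the high arrays, a difference of -0.40 (-0.66 to -0.15). Fbxo34 was the 1 gene of these 12 whose low and high arrays did not overlap, and its nearest values were 0.01 apart after rounding.

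The remaining 3 were near the floor of the arrays. The olfactory receptor gene Or2t6 measured 3.50 to 3.98 in the low and 3.87 to 4.17 in the high arrays, a difference of -0.31. The dopamine receptor gene Drd1 measured 3.87 to 4.10 against 4.00 to 4.56, a difference of -0.29. Havcr2, the gene of the T cell receptor TIM-3, measured 3.13 to 3.42 against 3.35 to 3.65, a difference of -0.24. Each was weak in every array, and values overlapped.

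**Figure D3:**
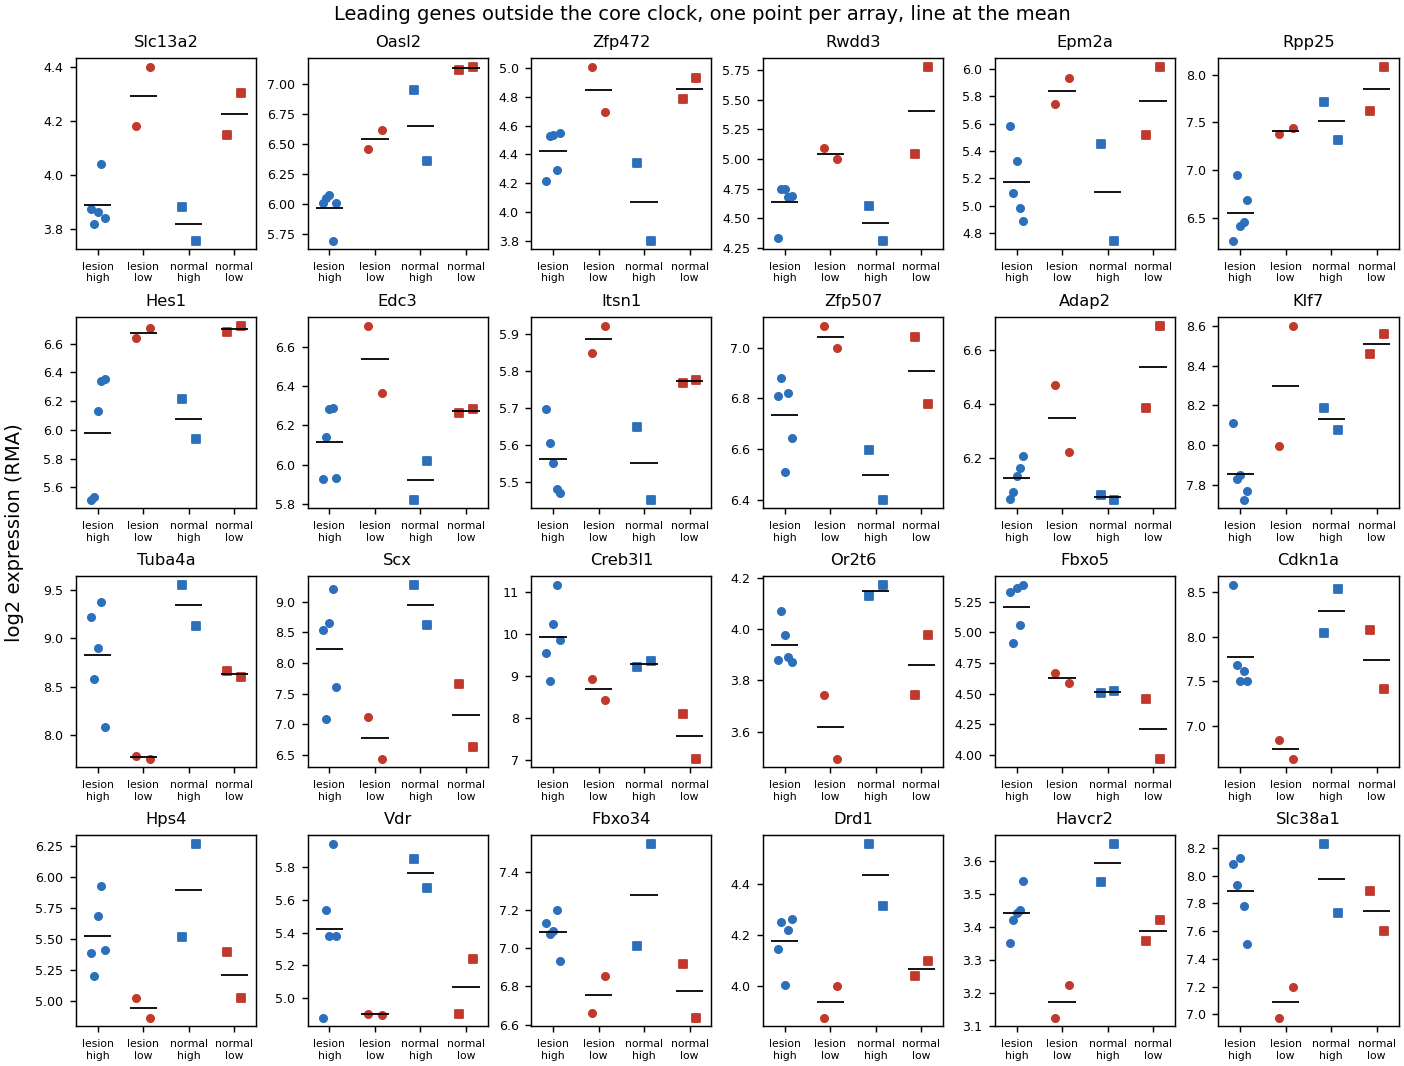
Log2 expression of the 24 leading genes outside the core clock in each array, split into high lesions (n = 5), low lesions (n = 2), high normal glands (n = 2) and low normal glands (n = 2), with lines at the means; each panel has its own axis. The upper 12 genes are higher and the lower 12 lower in the low arrays, and Slc13a2 and Hes1 separate fully while Scx and Creb3l1 overlap in 1 or more arrays.

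Lesions and normal glands share no array, so each gives its own view of the division. Within lesions 0 probe sets passed the limma test at an adjusted p under 0.05 (1053 at an unadjusted p under 0.05), and within normal glands 0 passed (705). The difference between both was also tested, and 0 probe sets passed (862 at an unadjusted p under 0.05). Over all probe sets the within-lesion and within-normal differences had a correlation of -0.05 (Pearson) and -0.03 (Spearman), and 49.8% had the same sign. This is a description across probe sets, which are not independent. Over the 17 core clock genes other than Bmal1 the Pearson correlation was 0.78, and 12 of the 17 had the same sign. Age ran along the division in opposite ways, since the low normal glands were from the older rats and the low lesions from younger rats than 3 of the 5 high lesions, and its part in these values was not tested.

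The same held from gene to gene. The 100 genes outside the core clock with the smallest p within lesions included 34 whose difference had the same sign in normal glands, 2 of them at an unadjusted limma p under 0.05 there. The 100 with the smallest p within normal glands included 44 with the same sign in lesions, 4 of them at that level. Over all 14488 genes outside the clock list 48.5% had the same sign. Both shares, 34% and 44%, were below that of all genes, so most genes that led in 1 tissue had the opposite sign in the other, and these shares were not tested.

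**Figure D4:**
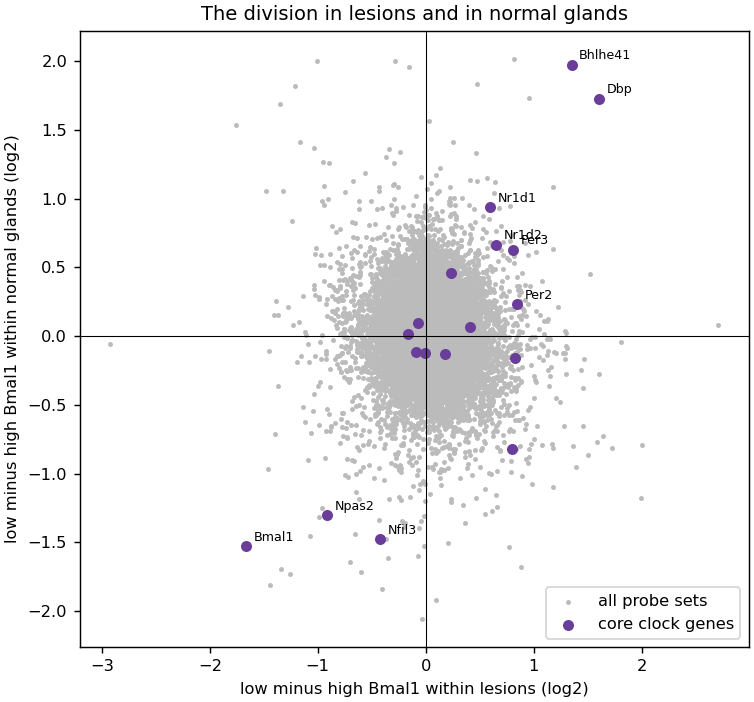
Low minus high difference within lesions (horizontal) against the same within normal glands (vertical), in log2 units, for all probe sets in grey and 18 core clock genes in purple. All probe sets form a cloud with a correlation of -0.05, while Dbp and Bhlhe41 lie far out at the upper right and Bmal1 and Npas2 at the lower left.

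Age runs along the division within normal glands and sex among the 13-month lesions, and both were put into the model. With both added, 0 probe sets besides Bmal1 passed the limma test, and 765 had an unadjusted p under 0.05. Dbp then differed by 1.69 with an adjusted p of 0.124. The 24 leading genes kept their direction, and 0 passed. They were picked by p on these same arrays, so a kept direction is largely a consequence of the choice. Scx differed by -1.38, Creb3l1 by -1.28, Hes1 by 0.73 and Slc13a2 by 0.42 in that model.

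Further gene lists cover what the clock is known to drive and what the adrenal tissue could hold. The 19 lists besides the core clock had 339 distinct measured members, and 0 passed the limma test in either direction. List medians lay between -0.27 and 0.15, beside 0.01 over all 14506 genes with a single symbol. In the following, members named are those with the largest difference in their list, none passed the test, and the interval is at 95%.

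Of 21 measured clock output genes (24 listed), 11 were above 0, with a median of 0.01. After Cdkn1a the largest difference was that of Pdk4, a kinase that shuts pyruvate dehydrogenase, at 0.46 (-0.56 to 1.48). Of 20 glucocorticoid response genes 12 were above 0, with a median of 0.10. Fkbp5, a co-chaperone that is induced by glucocorticoids, measured 8.30 to 9.15 in the low and 7.68 to 9.30 in the high arrays, with lesion status giving a difference of 0.50 (0.05 to 0.94). Zbtb16, a zinc finger factor induced in the same way, differed by 0.43 (-0.17 to 1.02).

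Genes of temperature and protein stress lay close to 0. Of 22 heat shock and temperature genes 9 were above 0 (median -0.02). Bag3, an HSP70 co-chaperone, differed by -0.54 (-1.09 to -0.00) and the cold-inducible Rbm3 by 0.43 (0.05 to 0.82), the latter by 0.73 within lesions and 0.01 within normal glands. Of 22 genes of the unfolded protein and amino acid response 5 were above 0 (median -0.09), with Herpud1, of endoplasmic reticulum degradation, at 0.45 and the pseudokinase gene Trib3 at -0.34.

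The lists of adrenal function were spread on both sides of 0. Of 21 steroidogenesis genes of the cortex 15 were above 0, with a median of 0.03, of 0.24 within lesions and -0.13 within normal glands. Lipe, the hormone-sensitive lipase that frees cholesterol, differed by 0.67 (-0.13 to 1.47), and Cyp11b2, the aldosterone synthase, by -0.36 (-1.36 to 0.64). Of 20 cholesterol genes 11 were above 0 (median 0.02), with Dhcr7 at 0.47 (-0.68 to 1.61) and Hsd17b7 at 0.46. Of 23 chromaffin cell genes 17 were above 0 (median 0.07), and the largest differences were those of the neuropeptide gene Gal at -0.53 (-1.97 to 0.90) and the vesicular monoamine transporter Slc18a2 at -0.47. Lesion 1 had the highest Gal of all arrays, at 9.59.

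Genes that respond to handling or low oxygen did not move together. Of 26 immediate early genes 14 were above 0, with a median of 0.0043 and a mean of -0.02. Nr4a3 differed by -0.69 (-1.58 to 0.20), and Klf4 by -0.64 (-1.12 to -0.16) and by -0.83 in its other probe set. Of 20 hypoxia and glycolysis genes 6 were above 0 (median -0.07), with the collagen prolyl hydroxylase gene P4ha1 at -0.47 and the hexokinase gene Hk2 at -0.30.

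Cell division genes lay mostly below 0 over all arrays, with a median below 0 in lesions only. Top2a was high in the lesions of the older rats. Of 28 measured members 3 were above 0 and 25 below, with a median of -0.25, of -0.33 within lesions and 0.05 within normal glands. Their mean level was 4.54 to 4.76 in the low and 4.52 to 5.50 in the high arrays. Top2a, the topoisomerase of dividing cells, measured 6.53 to 6.90 in the 3 lesions of 21 months or more, all of them high arrays, and 3.94 to 4.51 in the other 8 arrays. Its difference was -0.74 (-1.99 to 0.50), and 0.04 among arrays of rats under 20 months. The latter sets male low lesions against female high lesions, so sex and the division cannot be told apart in it. Cdk1, the mitotic kinase, differed by -0.46 (-1.11 to 0.20).

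Of 19 interferon response genes 15 were above 0, with a median of 0.15. Mx2, an antiviral GTPase, measured 7.35 to 7.88 in the low and 6.49 to 7.74 in the high arrays, a difference of 0.44 (0.08 to 0.81). Irf7 differed by 0.37 (-0.05 to 0.78). The mean level of the list was 6.99 to 7.48 in the low and 6.75 to 7.52 in the high arrays, which overlapped.

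Markers of other cells were compared in the same way. Adipocyte markers had the lowest median, -0.27, with 1 of 13 above 0. Fabp4, a fatty acid carrier, differed by -0.73 (-1.66 to 0.20) and the lipid droplet gene Cidec by -0.61 (-1.74 to 0.52). The mean level of the 13 markers was 5.19 to 5.93 in the low and 5.11 to 6.30 in the high arrays. Schwann and sustentacular markers had the highest median, 0.15, with 8 of 10 above 0, S100b at 0.43 and Pmp22 at 0.32.

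The blood and immune markers were near 0 or below. The median was -0.10 for blood and granulocytes (3 of 10 above 0), -0.12 for lymphocytes (4 of 14) and -0.10 for macrophages (4 of 14). Their largest differences were those of S100a9 at -0.46 and Hbb at -0.43, and of the T cell receptor chains Cd3d at -0.41 and Cd3g at -0.40. The macrophage receptors Cd14, at 0.40, and Cd163, at -0.33, had opposite signs in the tissues. Cd14 differed by 0.75 within lesions and -0.11 within normal glands. Cd163 differed by -0.97 (-1.52 to -0.42) within lesions and 0.59 (-0.07 to 1.24) within normal glands. S100a9 and Hbb were also below 0 within lesions and above 0 within normal glands, while Cd3d and Cd3g were below 0 in both. The difference between tissues did not pass the limma test for any of them. In these 3 lists the median was below 0 within lesions (-0.26, -0.46 and -0.26) and above 0 within normal glands (0.16, 0.14 and 0.13).

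Endothelial markers had a median of -0.11 (3 of 11 above 0), with Eng at -0.28 and Esam at -0.23. Fibroblast and matrix genes had a median of -0.01 (6 of 14), with the matricellular gene Thbs1 at -0.71 (-1.39 to -0.02) and the proteoglycan gene Dcn at 0.20. Liver and kidney genes, listed as a check of neighbouring tissue, had a median of -0.07 (3 of 11), with Aqp2 at 0.18 and Slc34a1 at -0.16. The mean level of each of these 3 lists overlapped between low and high arrays. The part of cell composition in the differences of single genes was not tested.

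**Figure D5:**
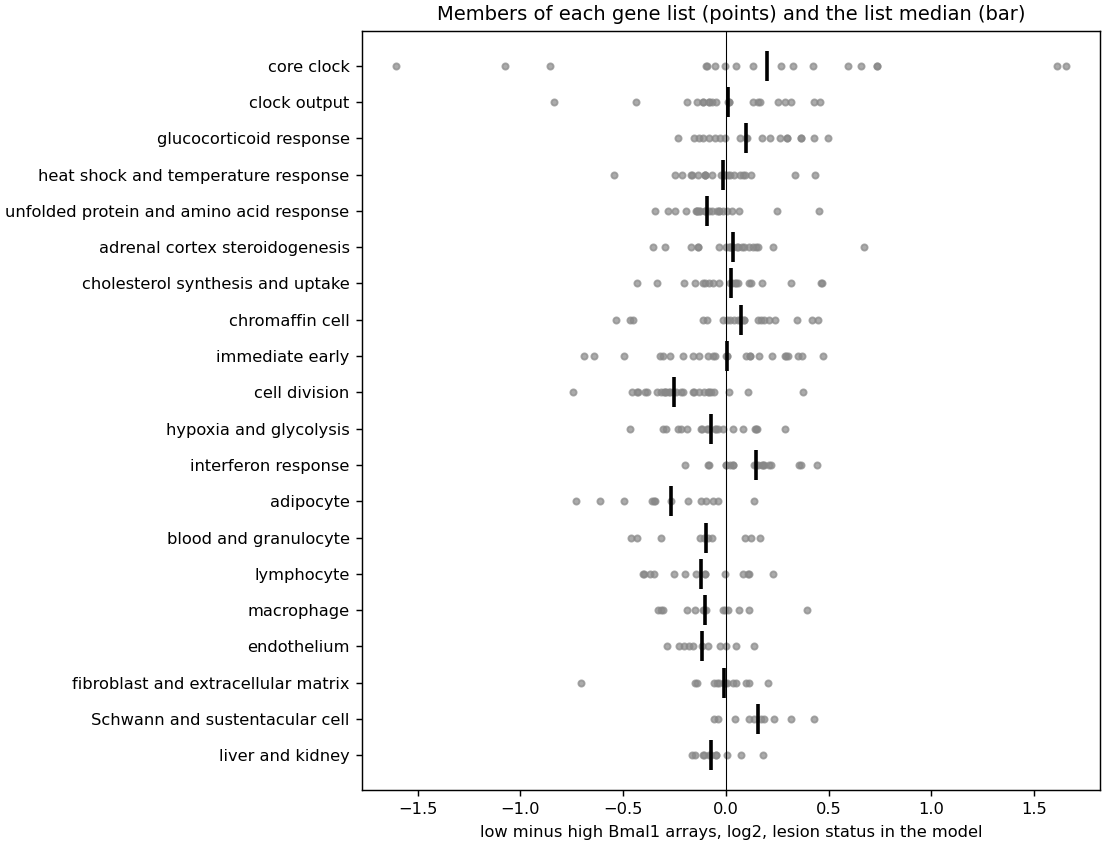
Low minus high difference (log2, lesion status in the model) of each measured member of the 20 gene lists (points) with the list median (black bar). The core clock list alone holds differences beyond 1 in size, and the medians of the other 19 lists lie between -0.27 and 0.15.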

How the data were processed

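Biotin-labelled RNA of 7 lesions and 4 normal glands, each labelled a biological replicate, was measured on 1-colour Affymetrix arrays. Nothing in the labels ties a replicate to an animal, so p-values measure the spread between these samples. The log2 values of each probe set were deposited by the authors after RMA normalization. The submitters' processing notes name Affymetrix Expression Console, version 1.3.0.187. No further normalization was applied. Scanner files were not used here, so neither background nor scan batch was examined, and precision is limited by the number of arrays.

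Of 29214 probe sets, 15310 had 1 gene symbol in the platform annotation, 323 several and 13581 none; 15279 matched a RefSeq table (GRCr8), which changed 0 symbols. For 527 of 14506 genes with several probe sets, the one of highest mean stood for the gene.

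Differences (low minus high, status as covariate) were tested two-sided with limma 3.58.1 in R 4.3.3, Benjamini-Hochberg over all probe sets, with a 4-cell model for lesions, normal glands and their difference. The procedure was tried on simulated data with independent probe sets and no effect of lesion status, age or sex. It therefore says nothing on how age and sex run along the division here. Named were the core clock genes, up to 12 other genes per direction (those called, or else those of smallest p) and the 2 members per list with the largest difference. Members, lists and tests were chosen with earlier results of these data known. Motifs were searched with Python 3.11.15. Alternatives changed the covariates, the threshold, the arrays, the normalization, the filter and the fit.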

Additional observations from a re-analysis of the deposited data

Results flagged for a closer look

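Single arrays stood far from the rest of their Bmal1 class for 9 of 144 gene and class combinations, by the gap to the nearest array as a share of the range; chance alone gives about 1 in 20. In the low class, normal gland 1 was set apart for Npas2 (7.36 against 6.36 to 6.48 in the other low arrays), for Nr4a3 (9.62 against 7.21 to 7.60) and for Thbs1 (6.70 against 5.92 to 6.01). Normal gland 2 was set apart for Rwdd3 (5.78 against 5.00 to 5.09) and for Vdr (5.24 against 4.90 to 4.91). Lesion 7 was set apart for Cidec (6.31 against 4.69 to 4.81). In the high class, lesion 1 was set apart for the neuropeptide gene Gal (9.59 against 5.17 to 6.96) and for Cd3g (5.78 against 3.42 to 4.20), and normal gland 4 for Cd163 (5.86 against 6.65 to 7.05).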

How the results depend on the processing

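Under 32 alternatives, 0 called a transcript outside the core clock list. The number called besides Bmal1 was 1 (Dbp) as reported and 2 (Dbp and Nr1d2) with no status term or with array weights. It was 0 with sex added, with age and sex added (an alternative added after seeing the data, as were those by sex alone and under 20 months), with Bmal1 as a continuous covariate, with normal gland 4 (7.25) counted as low or normal gland 1 (6.13) as high, in lesions only, normal glands only, males, females (1 low array) or rats under 20 months, at an adjusted p under 0.01 and with the replicate block. With each array left out it was 0 to 1. Dbp was called in 12 of the 32, and its difference was 1.23 to 1.90 per class and 0.98 per unit of Bmal1. Within normal glands the count was 0 to 1 with each array left out, and for the difference between tissues 0 to 2, the latter (Gpnmb and an unnamed probe set) without normal gland 2. Rats of 20 months or more could not be fitted alone, since division and status coincide there. Same-numbered samples had correlations of deviations of 0.18, 0.15, 0.07 and 0.21, and each of these lesions correlated best with its own number. They were not from the same animal, since the lesions came from heterozygous and the normal glands from wild-type rats. The labels state no other pairing, and what lies behind these correlations was not tested. With the replicate as a block the count was 0, Dbp differed by 1.88 (limma adjusted p = 0.873), Scx by -0.70 and Creb3l1 by -0.24. Lesions 5, 6 and 7 have no normal gland of their number, so that fit draws nothing from them. Both low lesions are among these, so the block fit is no check of the division over all arrays.

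Of 72 genes named, 44 kept their sign in all alternatives run. The 72 include Bmal1, whose sign was fixed by the division. Those outside the core clock were picked by p or by size of difference on these same arrays. The alternatives drew on the same arrays, so for those genes a kept sign is largely a consequence of the choice. The other 28 reversed in 46 values, and the cause was not tested. With normal gland 4 counted as low, Trib3 was 0.022. In lesions only, Trib3 was 0.14 and Cyp11b2 0.24. Without lesion 6 or 7, Per1 was -0.074 and -0.097. In normal glands only, Per1 was -0.82, Cry2 -0.16, Dhcr7 -0.33, Slc18a2 0.34, Top2a 0.15, Cdk1 0.082, S100a9 0.056, Hbb 0.18, Cd14 -0.11, Cd163 0.59 and Pmp22 -0.047. Under 20 months, Slc18a2 was 0.42, Nr4a3 0.13, Top2a 0.043, S100a9 0.92 and S100b -0.21. At those ages the low lesions are male and the high lesions female. In males, Zbtb16 was -0.0067, Gal 0.23, Cd3d 0.23 and Dcn -0.040. In females, Per1 was -0.28, Rpp25 -0.10, Cdkn1a 0.03, Pdk4 -0.13, Rbm3 -0.23, Dhcr7 -0.038, Slc18a2 0.062, Hk2 0.23, S100a9 0.27, Cd14 -0.53, Cd163 0.37, S100b -0.20 and Pmp22 -0.22. The values in females set normal gland 1 against normal gland 3 alone. With the replicate block, Per1 was -0.90, Nfil3 0.032, Cyp11b2 0.44, Fabp4 0.47, Cidec 0.89, Hbb 1.18, Cd163 0.54 and Esam 0.38. The block values draw nothing from the low lesions.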
